A study of Mus musculus with 8 samples.

Results

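The receptors and binding proteins of the insulin-like growth factors (IGFs) were examined in the quadriceps of mice labelled Nup210-/- and Nup210+/+. The 8 genes were Igf1r, Igf2r, Igfbp2, Igfbp3, Igfbp4, Igfbp5, Igfbp6 and Igfbp7. They were found by gene name among the 47643 genes of the deposited expression table, and each name was present once. They comprise 2 receptors and 6 binding proteins, of which all but Igfbp2 were expressed highly enough to be tested.

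IGF1 and IGF2 are secreted growth factors that promote the growth and repair of skeletal muscle. IGF1R is the receptor tyrosine kinase through which both act, by way of the IRS adaptors and the PI3K, Akt and mTOR pathway, whereas IGF2R, which also carries mannose 6-phosphate-tagged enzymes to lysosomes, takes up IGF2 for degradation without a kinase of its own. The secreted IGF binding proteins hold the ligands in blood and in the matrix, prolong their life, and either restrict or assist their access to IGF1R. IGFBP7 binds IGFs weakly and is often treated as a relative of the family.

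Nup210 is a transmembrane protein of the nuclear pore complex. Quadriceps RNA came from 4 Nup210-/- and 4 Nup210+/+ mice of the C57BL/6 strain, with 1 library for each mouse. The knockout line is constitutive, made with the Hprt-Cre driver by removing exon 2, so the deletion is not limited to muscle fibers. The age and sex of the mice sequenced were not given in the sources used here. Values are TPM, a share of the transcripts of a library corrected for transcript length, so that levels of different genes can be compared. In bulk tissue, fewer cells of a type and less RNA per cell cannot be told apart.

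Nup210 mRNA itself was 8.81 to 11.93 TPM in the libraries labelled Nup210-/- and 5.71 to 10.11 TPM in those labelled Nup210+/+. It was not lower under the knockout label (log2 fold change 0.44, limma adjusted p = 0.231). The values are per gene and so do not show the deleted exon, and protein was not analysed here, so the directions below rest on the labels. The 8 muscle fiber markers summed to 95009.8 to 102928 TPM under the Nup210-/- label and 88387.4 to 95386.5 TPM under the Nup210+/+ label (exact permutation test, p = 0.0571). Nup210+/+ replicate 2 stood apart, with 381.69 summed TPM of 6 granulocyte precursor markers against 0.31 to 2.12 in the other 7 libraries. The fold changes of Igf2r, the 5 binding proteins tested, Insr and Igf1 are also given without it. Between 18185 and 19357 genes were above 0 in a library, and read depth is unknown.

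The promoter sequences of 4 of the genes are shown because Igfbp5, Igfbp6 and Igfbp7 were the 3 most abundant binding proteins and had lower means under the Nup210-/- label, while Igf2r was the gene with the largest positive estimate. Each is the 250 bases before the start annotated by RefSeq on GRCm38.p6, read 5′ to 3′ on the strand of the gene. Capitals mark matches on either strand to TATAAA, the GC box (GGGCGG), the E box (CANNTG) or the CCAAT box. Igfbp5 lies on the minus strand at chr1:72874866-72875115, Igfbp6 on the plus strand at chr15:102143936-102144185, Igfbp7 on the minus strand at chr5:77408046-77408295 and Igf2r on the minus strand at chr17:12769707-12769956.
Igfbp5: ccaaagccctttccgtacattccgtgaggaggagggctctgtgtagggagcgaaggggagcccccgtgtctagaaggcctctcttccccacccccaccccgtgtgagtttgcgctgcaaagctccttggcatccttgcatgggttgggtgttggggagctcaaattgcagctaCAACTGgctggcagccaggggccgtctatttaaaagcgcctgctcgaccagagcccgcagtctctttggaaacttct
Igfbp6: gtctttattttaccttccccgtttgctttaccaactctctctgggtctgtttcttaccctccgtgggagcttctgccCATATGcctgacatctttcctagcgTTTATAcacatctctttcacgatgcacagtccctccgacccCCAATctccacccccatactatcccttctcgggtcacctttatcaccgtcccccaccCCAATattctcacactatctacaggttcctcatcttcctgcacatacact
Igfbp7: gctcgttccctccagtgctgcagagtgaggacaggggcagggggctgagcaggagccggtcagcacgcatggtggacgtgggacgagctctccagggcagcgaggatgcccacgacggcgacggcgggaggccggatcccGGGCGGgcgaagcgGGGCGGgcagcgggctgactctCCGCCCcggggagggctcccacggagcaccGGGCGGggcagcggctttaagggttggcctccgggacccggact
Igf2r: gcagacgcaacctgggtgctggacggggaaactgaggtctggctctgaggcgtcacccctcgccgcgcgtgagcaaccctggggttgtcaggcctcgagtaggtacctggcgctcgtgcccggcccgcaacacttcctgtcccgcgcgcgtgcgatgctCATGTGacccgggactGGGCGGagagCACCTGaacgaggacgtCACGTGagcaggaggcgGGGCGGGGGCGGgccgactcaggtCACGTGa

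Of the 4 windows, 3 matched the E box and 2 the GC box. Igf2r had 3 GC boxes, of which 2 adjoin at 31 and 25 bases before the start, and 4 E boxes, the nearest 7 bases before it. Igfbp7 had 4 GC boxes and no E box. A GC box was present in 32.7% and an E box in 66.2% of all 32851 promoter windows of this length. Igfbp5 matched a single E box, 77 bases before the start. Igfbp6 matched an E box at 173 bases and TATAAA on the reverse strand at 148 bases, a motif present in 12.4% of all windows, and had CCAAT boxes, present in 33.8%, at 107 and 50 bases before the start. Its window precedes a RefSeq start that lies upstream of the GENCODE start at 102144362. The GC content was 58.8% for Igfbp5, 49.6% for Igfbp6, 74.0% for Igfbp7 and 69.2% for Igf2r, against a median of 52.4% over all windows. Among the other genes, Igfbp4 had TATAAA 28 bases before its start. The MEF2 motif, bound by the muscle factors of the Mef2 family and present in 2.92% of all windows, had no match in the windows of the 8 genes, which says only that these letters were not there. No binding data were analysed, and a match is a description of sequence.

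Of the binding proteins, 4 were more abundant than both receptors, while Igfbp3 and Igfbp2 were below Igf2r. Over the 8 libraries, mean levels descended from Igfbp5 (186.1 TPM) through Igfbp6 (84.3 TPM), Igfbp7 (67.1 TPM), Igfbp4 (47.0 TPM), Igf2r (16.7 TPM), Igfbp3 (14.2 TPM) and Igf1r (2.93 TPM) to Igfbp2 (0.118 TPM). In 5 of the 7 neighbouring pairs the order was the same in 8 of 8 libraries, and in 6 of the 7 without Nup210+/+ replicate 2. Igfbp4 exceeded Igfbp7 in 1 library, Nup210+/+ replicate 2 (exact sign-flip permutation test of the log2 ratio, p = 0.0156), and Igfbp3 exceeded Igf2r in 1 library, Nup210+/+ replicate 3 (exact sign-flip permutation test, p = 0.0391). The other 5 pairs reached p = 0.00781, the smallest this exact permutation test can give with 8 libraries, and after Benjamini-Hochberg adjustment over the 7 pairs all were at 0.0391 or below. Igfbp5 alone ranked at the 96.5 percentile of the 14229 genes tested and Igf1r at the 29.6 percentile.

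**Figure D1:**
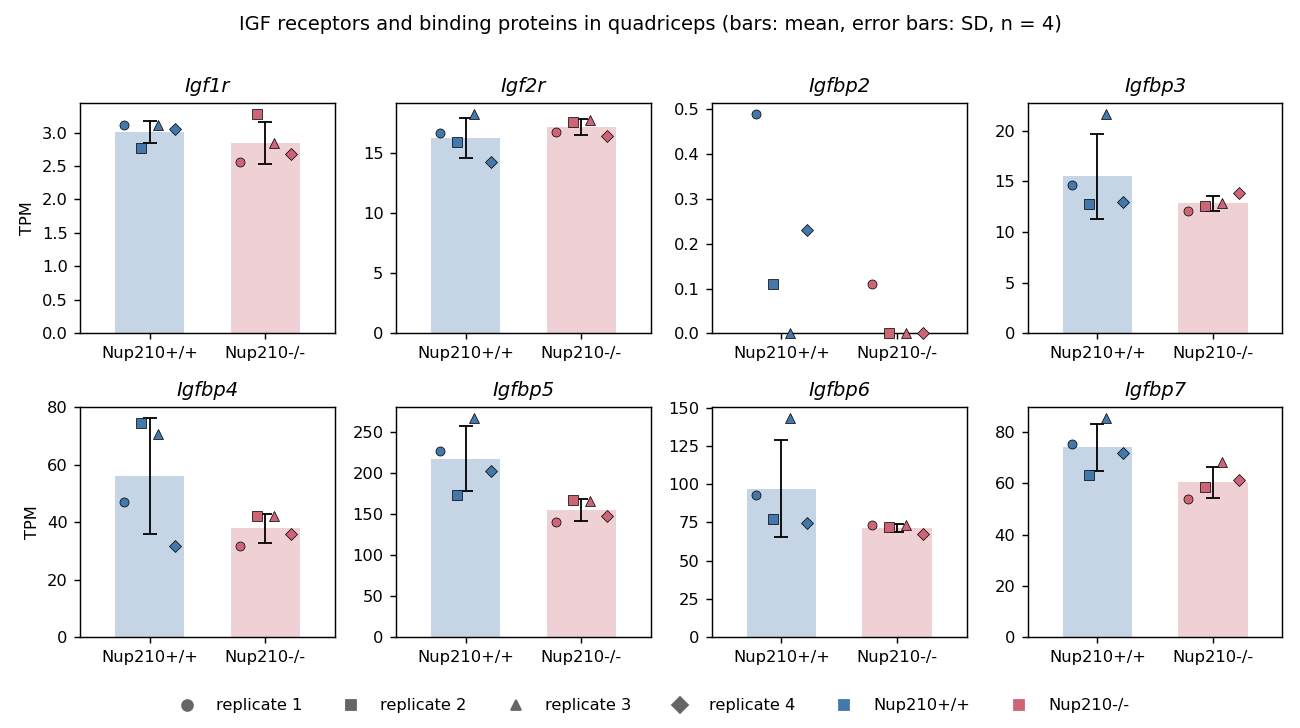
Expression (TPM, linear axes from 0) of the 8 genes in each library, by genotype; bars are means, error bars SD (n = 4), and marker shapes are replicate numbers, with points alone for Igfbp2, which was listed at 0 in some libraries. Igfbp5 and Igfbp6 were lower in all 4 libraries labelled Nup210-/- than in all 4 labelled Nup210+/+, as in 6.87% of all genes tested. Nup210+/+ replicate 3 was highest for Igfbp3, Igfbp5, Igfbp6 and Igfbp7, and the receptors overlapped.

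Igf1r (ENSMUSG00000005533), the signalling receptor, has 21 exons and lies on the plus strand of chromosome 7 of GRCm38, from 67952827 to 68233668. Its mRNA was 2.56, 3.28, 2.84 and 2.68 TPM across Nup210-/- replicates 1 to 4 and 3.11, 2.77, 3.12 and 3.05 TPM across Nup210+/+ replicates 1 to 4. The genotypes overlapped, with both the lowest and the highest value under the Nup210-/- label. The means were 2.84 ± 0.315 and 3.01 ± 0.165 TPM (SD, n = 4). After scaling of the libraries to a common median, the log2 fold change was 0.00 with a 95% interval from -0.21 to 0.22 (limma, Benjamini-Hochberg adjusted p = 0.989). On a fold scale this interval runs from 0.862 to 1.17. The sign of the estimate changed between settings of the processing, among them TPM as deposited, where it was -0.07.

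Igf2r (ENSMUSG00000023830), the IGF2 clearance receptor, has 48 exons on the minus strand of chromosome 17, from 12682406 to 12769664. Its level was 16.77, 17.64, 17.8 and 16.43 TPM across Nup210-/- replicates 1 to 4 and 16.7, 15.97, 18.28 and 14.25 TPM across Nup210+/+ replicates 1 to 4. On TPM the genotypes overlapped, with both extremes under the Nup210+/+ label (exact permutation test, p = 0.429). On scaled TPM they did not, at 17.6 to 17.9 under the Nup210-/- label and 14.9 to 16.3 under the Nup210+/+ label (exact permutation test, p = 0.0286, the smallest it can give for 4 against 4). Genes that were higher in this way made up 4.78% of all genes tested on scaled TPM and 1.54% on TPM. The log2 fold change was 0.16 (standard error 0.0576, 95% interval 0.03 to 0.29), which did not pass the test over all genes (limma adjusted p = 0.254), and it was 0.16 without Nup210+/+ replicate 2. With TPM as deposited it was 0.07, while the median of all genes moved from -0.01 to -0.08, so that the separation of Igf2r rests on the scaling. After scaling, Igf2r was unusually even within genotypes. Its residual SD was smaller than that of all but 0.534% of the genes tested. On TPM its coefficient of variation was 3.87% in Nup210-/- and 10.3% in Nup210+/+ libraries.

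IGF1R is a close relative of the insulin receptor, and the products of both genes can pair in hybrid receptors. Insr mRNA was 5.74 to 8.01 times as abundant as Igf1r mRNA in the 8 libraries. The ratio of Igf1r to Insr was 0.130, 0.143, 0.134 and 0.125 across Nup210-/- replicates 1 to 4 and 0.151, 0.165, 0.126 and 0.174 across Nup210+/+ replicates 1 to 4. Nup210+/+ replicate 3 had a ratio within the Nup210-/- range, and the other Nup210+/+ libraries lay above it. The means were 0.133 ± 0.00775 and 0.154 ± 0.0207 (SD, n = 4), a difference of -0.0210 that did not pass the exact permutation test (p = 0.114). Without Nup210+/+ replicate 3 the difference was -0.0302. Leaving out this library, the only one of its genotype to overlap, separates the genotypes by itself. The exact permutation test then gave p = 0.0286, the smallest it can give, so that this p adds no support. With any other single library left out, the exact permutation test gave p = 0.143 to 0.229. Without Nup210+/+ replicate 2 the difference was -0.0174 (exact permutation test, p = 0.229). Insr itself had a log2 fold change of 0.20 (limma adjusted p = 0.378), which was 0.12 without Nup210+/+ replicate 2 and 0.26 without Nup210+/+ replicate 3.

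Igfbp5 (ENSMUSG00000026185), the most abundant of the genes, encodes a matrix-bound protein that is induced as myoblasts differentiate. It has 4 exons on the minus strand of chromosome 1, from 72857932 to 72874884, beside Igfbp2. Its mRNA was 139.77, 166.46, 165.34 and 147.89 TPM across Nup210-/- replicates 1 to 4 and 226.53, 173.2, 266.98 and 202.37 TPM across Nup210+/+ replicates 1 to 4. Every library labelled Nup210-/- was below every library labelled Nup210+/+ on TPM (exact permutation test, p = 0.0286), as in 6.87% of all genes tested. On scaled TPM, Nup210+/+ replicate 2, at 167.1, fell below Nup210-/- replicate 2, at 168.7 (exact permutation test, p = 0.0571). The means were 154.9 ± 13.2 and 217.3 ± 39.7 TPM (SD, n = 4), a ratio of 0.713. The log2 fold change was -0.38 (standard error 0.104, 95% interval -0.61 to -0.14) and did not pass the test over all genes (limma adjusted p = 0.181). Without Nup210+/+ replicate 2 it was -0.48 (limma adjusted p = 0.0587), the lowest adjusted p of any of the genes under any setting.

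Igfbp6 (ENSMUSG00000023046), whose product prefers IGF2 over IGF1, has 4 exons on the plus strand of chromosome 15, from 102144362 to 102149511. It was at 73.06, 72.12, 73.12 and 67.64 TPM across Nup210-/- replicates 1 to 4 and at 93.16, 77.36, 143.32 and 74.67 TPM across Nup210+/+ replicates 1 to 4. On TPM the Nup210-/- libraries were close together and all below the Nup210+/+ libraries, as in 6.87% of all genes tested. Among the Nup210+/+ libraries, replicate 3 was far above the rest. The coefficient of variation was 3.64% in Nup210-/- and 32.8% in Nup210+/+ libraries. By exact permutation test the p was 0.0286 for TPM and 0.0571 for scaled TPM, where the genotypes overlapped. The means were 71.5 ± 2.60 and 97.1 ± 31.9 TPM (SD, n = 4). Its log2 fold change was -0.29, with a standard error of 0.148 (limma adjusted p = 0.404). Without Nup210+/+ replicate 3 the log2 fold change was -0.13 (limma adjusted p = 0.493), and without Nup210+/+ replicate 2 it was -0.39 (limma adjusted p = 0.319).

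Igfbp7 (ENSMUSG00000036256), which is also a protein of the vascular matrix, has 6 exons on the minus strand of chromosome 5, from 77349240 to 77408041. Some of its exons overlap those of Polr2b on the opposite strand. Its level was 53.75, 58.47, 68.14 and 61.21 TPM across Nup210-/- replicates 1 to 4 and 75.18, 63.06, 85.45 and 71.83 TPM across Nup210+/+ replicates 1 to 4. On TPM the genotypes overlapped only through Nup210-/- replicate 3 and Nup210+/+ replicate 2, and on scaled TPM Nup210-/- replicate 4 also lay above the latter (p = 0.0571 for TPM and 0.0857 for scaled TPM by exact permutation test). The means were 60.4 ± 6.01 and 73.9 ± 9.25 TPM (SD, n = 4), and the log2 fold change was -0.19 with a 95% interval from -0.39 to 0.01 (limma adjusted p = 0.374). Without Nup210+/+ replicate 2 it was -0.26 (limma adjusted p = 0.211).

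Igfbp4 (ENSMUSG00000017493) encodes a binding protein that restrains IGF action until the protease PAPP-A cuts it. It has 4 exons on the plus strand of chromosome 11, from 99041244 to 99054392. Its mRNA was 31.75, 42.17, 42.05 and 35.76 TPM across Nup210-/- replicates 1 to 4 and 47.16, 74.66, 70.81 and 31.9 TPM across Nup210+/+ replicates 1 to 4. Replicates 2 and 3 of Nup210+/+ were far above all other libraries, and replicate 4 of Nup210+/+ was near the lowest. The means were 37.9 ± 5.09 and 56.1 ± 20.2 TPM (SD, n = 4; exact permutation test, p = 0.143). The log2 fold change of -0.39 had the widest 95% interval of the genes, from -0.87 to 0.09 (limma adjusted p = 0.427). It was -0.23 without Nup210+/+ replicate 2 and -0.60 without Nup210+/+ replicate 4.

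Igfbp3 (ENSMUSG00000020427), the main carrier of IGFs in blood, has 5 exons on the minus strand of chromosome 11, from 7206086 to 7213923. It was at 12.11, 12.51, 12.88 and 13.85 TPM across Nup210-/- replicates 1 to 4 and at 14.64, 12.74, 21.65 and 12.97 TPM across Nup210+/+ replicates 1 to 4. Apart from Nup210+/+ replicate 3, all libraries lay between 12.11 and 14.64 TPM. The means were 12.8 ± 0.745 and 15.5 ± 4.19 TPM (SD, n = 4), and the log2 fold change was -0.14 (limma adjusted p = 0.650; exact permutation test on TPM, p = 0.200). It was -0.01 without Nup210+/+ replicate 3 and -0.21 without Nup210+/+ replicate 2.

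Igfbp2 (ENSMUSG00000039323), which is abundant in the fetus and in liver and brain, has 4 exons on the plus strand of chromosome 1, from 72824503 to 72852474. Under the Nup210-/- label, replicate 1 had 0.11 TPM and the remaining 3 were listed at 0. The Nup210+/+ replicates 1 to 4 had 0.49, 0.11, 0 and 0.23 TPM. Both genotypes included libraries at 0. Its mean of 0.118 TPM was under the minimum of 0.5 TPM for testing, and the exact permutation test on TPM gave p = 0.257. Its neighbour Igfbp5 was read in the same libraries at 139.77 TPM or more.

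Together, 0 of the 7 genes tested passed an adjusted p of 0.05 in limma, against 0.112% of all 14229 genes tested (0.0492% higher and 0.0633% lower, that is 7 and 9 genes, but 2 and 12 with TPM as deposited). At an unadjusted p of 0.05 in limma, 1 was higher, Igf2r, and 1 was lower, Igfbp5, beside 14.2% of all genes tested, 7.00% higher and 7.18% lower. Both receptors had a positive estimate, as did 48.7% of all genes. All 5 binding proteins tested had a negative estimate, as did 51.3% of all genes, and the median of their log2 fold changes was -0.29 against -0.01 over all genes tested. On TPM, 2 of the 7, Igfbp5 and Igfbp6, did not overlap between genotypes, against 8.41% of all genes. On scaled TPM, 1 of the 7, Igf2r, did not overlap, against 9.38% of all genes, 4.78% higher and 4.60% lower. These shares are given as description, and the 7 genes share the same 8 libraries.

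**Figure D2:**
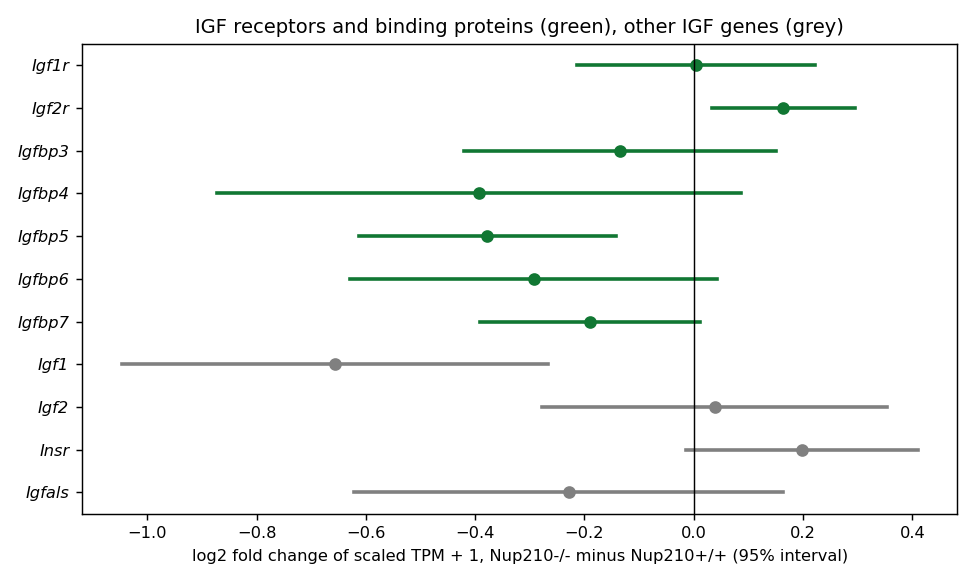
Log2 fold change of scaled TPM + 1, Nup210-/- minus Nup210+/+, with 95% intervals from limma (n = 4 per genotype), for the 7 receptors and binding proteins tested (green) and for Igf1, Igf2, Insr and Igfals (grey). The intervals of Igf2r (0.03 to 0.29), Igfbp5 (-0.61 to -0.14) and Igf1 (-1.05 to -0.27) exclude 0 before adjustment for the number of genes tested, and none passed after it.

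The summed level of the 6 binding proteins was 310.55 to 361.53 TPM under the Nup210-/- label and 393.97 to 588.21 TPM under the Nup210+/+ label. The means were 338 ± 23.3 and 460 ± 89.9 TPM (SD, n = 4), and no p is given for this sum. The share of each binding protein in this sum overlapped between the genotypes. Igfbp5 made up 45.8 ± 1.03% in Nup210-/- and 47.4 ± 3.75% in Nup210+/+ libraries (SD, n = 4), Igfbp6 21.2 ± 1.53% and 20.7 ± 2.49%, and Igfbp7 17.9 ± 1.10% and 16.2 ± 1.55%. The share of Igfbp4 varied most among mice labelled Nup210+/+, from 8.10 to 18.6%, against 10.2 to 12.0% under the Nup210-/- label.

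In muscle tissue, IGF binding proteins are made by fibroblasts and vessel cells as well as by fibers, and the fibroblast markers were examined beside them. The summed TPM of 8 fibroblast markers, among them Pdgfra, Dcn and Col1a1, was 769.35, 861.68, 731.54 and 776.94 across Nup210-/- replicates 1 to 4. Across Nup210+/+ replicates 1 to 4 it was 1077.53, 1002.66, 1448.75 and 912.27. The genotypes did not overlap (exact permutation test, p = 0.0286), and 8 of the 8 markers had a lower estimate under the Nup210-/- label, though 0 passed an adjusted p of 0.05 in limma (6 at an unadjusted p of 0.05, all lower, against 7.18% of all genes). Divided by this sum, Igfbp5 was 0.198 ± 0.0194 in Nup210-/- and 0.197 ± 0.0227 in Nup210+/+ libraries (SD, n = 4; exact permutation test, p = 0.971). Igfbp6 was 0.0914 ± 0.00739 and 0.0861 ± 0.00936 (exact permutation test, p = 0.371), and Igfbp7 was 0.0774 ± 0.0115 and 0.0676 ± 0.00866 (exact permutation test, p = 0.200). The same ratio was 0.0484 ± 0.00681 and 0.0505 ± 0.0170 for Igfbp4 (exact permutation test, p = 0.857) and 0.0164 ± 0.00158 and 0.0139 ± 0.000950 for Igfbp3 (exact permutation test, p = 0.0571). Relative to fibroblast markers, Igfbp5 and Igfbp6 overlapped between the genotypes. The mean ratios of Igfbp3, Igfbp5, Igfbp6 and Igfbp7 were not lower under the Nup210-/- label, and that of Igfbp4 was. The marker sum was itself lower under that label, so dividing by it raises the Nup210-/- values relative to the Nup210+/+ values. This ratio was chosen after the values were seen, and whether the share of fibroblasts differed was not tested.

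Markers of other cell types were summed in the same way. Leukocyte markers, 10 in all, summed to 130.08 to 146.15 TPM under the Nup210-/- label and 159.08 to 313.2 TPM under the Nup210+/+ label (exact permutation test, p = 0.0286). All 10 estimates were lower, 7 of them at an unadjusted p of 0.05 in limma, against 7.18% of all genes. Of the 10, 1, Cd52, was past an adjusted p of 0.05 in limma and was named after its value was seen. Its limma adjusted p was 0.0490, close to the threshold, and 0.0633% of all genes tested passed in this direction. No gene passed with upper-quartile scaling or without the trend. The highest sums, 295.71 and 313.2 TPM, were in Nup210+/+ replicates 2 and 3, the libraries in which Igfbp4 was highest. Tendon markers summed to 84.64 to 133.55 and 118.82 to 203.07 TPM (exact permutation test, p = 0.0571). For these, 5 of the 5 estimates were lower, 4 of them at an unadjusted p of 0.05 in limma, against 7.18% of all genes. Adipocyte markers were highest in Nup210+/+ replicate 3, at 351.36 against 119.76 to 194.93 TPM in the other 7 libraries. Igfbp3, Igfbp5, Igfbp6 and Igfbp7 were also highest in that library. It had the highest sums of fibroblast, tendon, leukocyte, endothelial, mural and Schwann cell markers as well, and the lowest sum of muscle fiber markers. Endothelial markers, whose cells are a source of Igfbp7 and Igfbp3, summed to 100.22 to 113.22 TPM and 98.6 to 124.4 TPM, which overlapped (exact permutation test, p = 0.457). Mural cell markers summed to 146.56 to 156.43 and 154.42 to 191.39 TPM, and satellite cell markers to 15.2 to 17.97 and 12.75 to 15.57 TPM (exact permutation test, p = 0.0571 for each). Schwann cell markers summed to 38.85 to 50.54 and 45.71 to 61.29 TPM (exact permutation test, p = 0.143). Muscle fiber markers had 8 of 8 estimates higher under the Nup210-/- label and 0 past an adjusted p of 0.05 in limma (3 at an unadjusted p of 0.05, all higher, against 7.00% of all genes). Adipocyte and granulocyte precursor markers had 6 of 6 estimates lower each, with 0 past an adjusted p of 0.05 in limma (0 at an unadjusted p of 0.05). For their sums the exact permutation test gave p = 0.6 and p = 0.371. No marker of these lists was at 0 in all libraries. The part of these cell types in the values of the binding proteins was not tested.

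**Figure D3:**
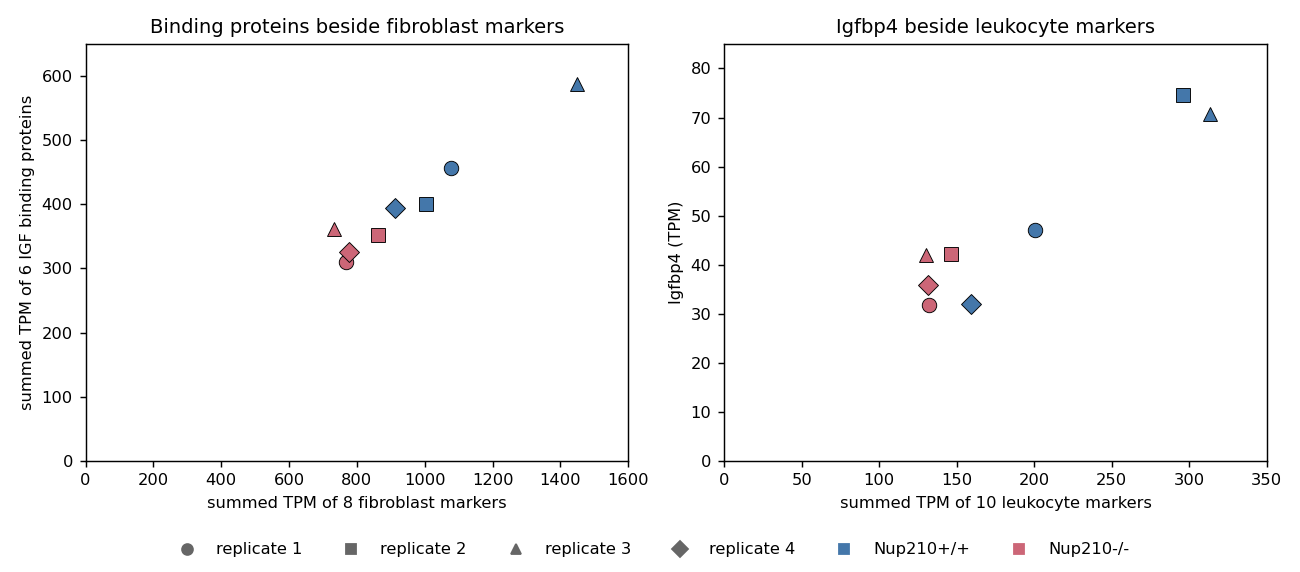
Left, summed TPM of the 6 binding proteins against summed TPM of 8 fibroblast markers in each library; right, Igfbp4 (TPM) against summed TPM of 10 leukocyte markers; colours are genotypes and shapes replicate numbers. Nup210+/+ replicate 3 lay highest on the left (588.21 and 1448.75 TPM), and Nup210+/+ replicates 2 and 3 lay apart on the right (Igfbp4 at 74.66 and 70.81 TPM).

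Across the 8 libraries, 0 of the 28 pairs of genes passed a Benjamini-Hochberg adjusted p of 0.05, and 5 pairs were under 0.05 before adjustment by the exact permutation test. All 5 were positive and between binding proteins. On log2 scaled TPM, Igfbp5 and Igfbp7 had a Pearson r of 0.880 (exact permutation p = 0.00975, adjusted 0.136) and a Spearman rho of 0.762 (exact permutation p = 0.0368). The r was 0.804 without the 2 libraries farthest from the median of Igfbp5 and 0.803 after subtraction of the genotype means. Igfbp5 and Igfbp6 had an r of 0.789 (exact permutation p = 0.00521, adjusted 0.136) and a rho of 0.738 (exact permutation p = 0.0458), with r at 0.445 without the 2 farthest libraries, so that this relation rests in part on them. For Igfbp3 and Igfbp6, r was 0.895 (exact permutation p = 0.0300) and rho was 0.333, with r at 0.876 without the 2 farthest libraries and 0.896 after subtraction of the genotype means.

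The genes whose profile over the 8 libraries was most like each of these were found among 8388 genes with a mean of at least 5 TPM, as a description with Pearson r. Among so many genes, some high r over 8 libraries arise by chance, and these matches were not tested. The Spearman rho of the genes named ran from 0.595, for Igfbp3 with Ifitm3, to 0.976. For Igfbp5 they were Chac2 (r = 0.986), which encodes an enzyme of glutathione breakdown, Ddit3 (r = 0.962), a stress-induced transcription factor, and Mfge8 (r = 0.959), a secreted phosphatidylserine-binding protein. For Igfbp6 they were Pltp (r = 0.980), which encodes a phospholipid carrier, Adgre5 (r = 0.979), a leukocyte adhesion receptor, and Ccdc80 (r = 0.978), a matrix protein. For Igfbp4 they were Itm2b (r = 0.971), Psmb8 (r = 0.971), which encodes a subunit of the immunoproteasome, and Ctps2 (r = 0.966). For Igfbp3 they were Npr3 (r = 0.955), the natriuretic peptide clearance receptor, and the interferon-induced genes Gbp2 (r = 0.950) and Ifitm3 (r = 0.947). Igfbp7 was most like Zhx2 (r = 0.936), Hfe (r = 0.923) and Cd81 (r = 0.920). Igf2r was most like Neat1 (r = 0.989), a nuclear noncoding RNA, Ctxn3 (r = 0.980) and Cnst (r = 0.972). Igf1r had the fewest close matches, led by Ngrn (r = 0.923), Bag3 (r = 0.907) and Myl9 (r = 0.898), and 2 genes in all exceeded an r of 0.9, against 77 for Igfbp6 and 63 for Igf2r.

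Of the ligands, Igf1, the ligand produced by fibers, fibroblasts and macrophages in muscle, was at 9.2, 10.22, 10.52 and 7.27 TPM across Nup210-/- replicates 1 to 4 and 13.71, 13.12, 25.47 and 14.63 TPM across Nup210+/+ replicates 1 to 4. Every library labelled Nup210-/- was below every library labelled Nup210+/+, on TPM and on scaled TPM. The exact permutation test gave p = 0.0286 for both, the smallest it can give for 4 against 4. Genes that were lower in this way made up 6.87% of all genes tested on TPM and 4.60% on scaled TPM. The log2 fold change was -0.66 (standard error 0.173, 95% interval -1.05 to -0.27), which did not pass the test over all genes (limma adjusted p = 0.169), and without Nup210+/+ replicate 3 it was -0.49 (limma adjusted p = 0.170), and without Nup210+/+ replicate 2 it was -0.75 (limma adjusted p = 0.156). Igf2 was 6.18 to 10.19 TPM and 6.64 to 10.34 TPM, with a log2 fold change of 0.04 (limma adjusted p = 0.925). The genotypes overlapped throughout its range.

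Of 52 other genes of the pathway, 45 were tested and 0 passed an adjusted p of 0.05 in limma. At an unadjusted p of 0.05 in limma 3 were higher and 4 lower, a share near the 7.00% and 7.18% of all genes, 25 estimates were positive and 20 negative, and their median log2 fold change was 0.04. The higher 3, which encode an Akt kinase and the TSC complex that restrains mTOR, were Akt2, Tsc1 and Tsc2, and the lower 4 included Igf1, M6pr and Pdpk1. Akt2, Tsc1, Tsc2 and Pdpk1 were named after their values were seen. M6pr, the smaller mannose 6-phosphate receptor, had a log2 fold change of -0.30 (limma adjusted p = 0.329). Of the other binding proteins, Igfbp1 and Igfbpl1 were listed at 0 in all 8 libraries, and Igfals, which encodes the acid-labile subunit that joins IGFBP3 and IGFBP5 in blood, had a log2 fold change of -0.23 (limma adjusted p = 0.573). Among proteases of the binding proteins and their regulators, 4 of 7 were tested, with estimates from -0.23 for the PAPP-A inhibitor Stc2 to 0.09 for Adam9, and Pappa was too low to test. The 11 tested substrates and adaptors ran from -0.46 for Irs1 (limma adjusted p = 0.471) to 0.13 for Sos2. The 25 genes of the PI3K, Akt and mTOR list had a median log2 fold change of 0.06, and the largest estimate was 0.24, for Foxo1 (limma adjusted p = 0.804). The mean TPM of Foxo1 went the other way, at 7.37 under the Nup210-/- label and 8.08 under the Nup210+/+ label. Nup210+/+ replicate 3 was at 19.06 TPM, against 3.76 to 5.18 TPM in the rest of that genotype.

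**Figure D4:**
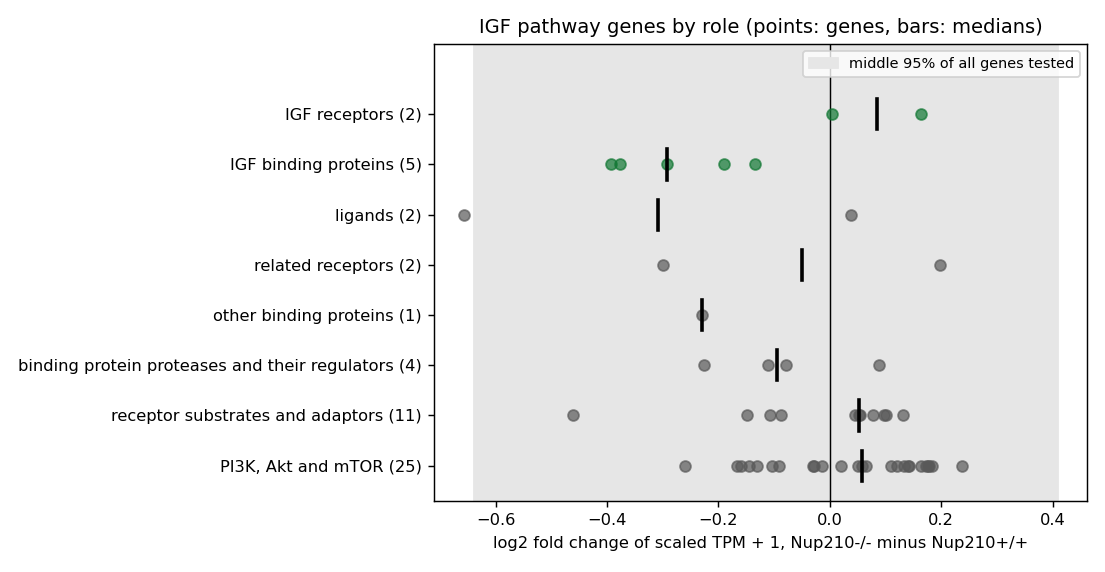
Log2 fold change (Nup210-/- minus Nup210+/+, scaled TPM + 1) of each tested gene by role, with the number of genes in parentheses; black bars are medians and the grey band holds the middle 95% of all 14229 genes tested (-0.64 to 0.41). The 5 binding proteins tested all lay below 0, with a median of -0.29, inside the band, and Igf1 at -0.66 lay outside it.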

How the data were processed

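RNA sequencing of quadriceps from 4 Nup210-/- and 4 Nup210+/+ mice was analysed. The authors isolated polyadenylated RNA, prepared directional single-end libraries, trimmed reads with cutadapt 2.3, aligned them to mm10 with STAR 2.7.0d and quantified genes with RSEM 1.3.1 and Ensembl annotation. The deposited values are TPM per gene and library, unpooled, which keep no depth, so no counting error can be given. The study compared estimated counts with DESeq2, and those counts were not analysed here.

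Each library was scaled by its median ratio to a reference, the geometric mean of TPM in the 15225 genes detected everywhere (factors 0.936 to 1.12), and log2(scaled TPM + 1) was taken, which understates changes of low genes. Genes reaching a mean TPM of 0.5, 14229 in all, were compared between genotypes with limma 3.58.1 in R 4.3.3 (intensity trend, Benjamini-Hochberg adjustment over all genes tested). All exact permutation tests were two-sided. Each mouse gave 1 library, and groups came from the labels. In simulated data on the 14229 genes of this comparison, 200 genes with a mean log2(scaled TPM + 1) above 1 were shifted. Of these, 32.6% were recovered at a shift of 0.5 on the log2 scale and 82.9% at a shift of 1. With none changed 0 were called. Lower genes were not shifted, so the shares do not cover them. Genes were drawn independently, with the same SD in both genotypes. Outlying libraries and unequal spread, as seen in these data, were not simulated, so these shares may not hold for them.

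The 8 genes and all lists were chosen with earlier results of these data known. Besides them, the text names Nup210, Insr, list genes past the threshold or with the largest or smallest log2 fold change of their list, and the 3 genes most like each of the 7 tested by Pearson r. The result of 1 list gene that this rule would name is not reported here. Where a marker had 2 table entries, the higher was used. Replicate numbers recur in both genotypes, and the labels do not say that they pair the mice. Deviations of libraries with the same number correlated at -0.03 to 0.09, and those with different numbers at -0.08 to 0.10. This showed no pairing but cannot exclude one. Coordinates are from GENCODE M21 on GRCm38 and promoters from RefSeq. Other settings were pseudocounts of 0.5 and 0.1, other filters and scalings, eBayes without trend or robust, library weights, a replicate block and each library left out. Figures were drawn with matplotlib 3.10.9.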

Additional observations from a re-analysis of the deposited data

Results flagged for a closer look

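For each gene or marker sum, the distance from the most extreme library of a genotype to its neighbour was expressed as a share of the spread of all 4 (the gap). In 7 of 58 groups the gap was larger than Dixon's test allows, which chance gives in about 1 in 20 groups, or 2.9 of 58. Igfbp2 in Nup210-/- replicate 1 was 0.11 TPM while the other 3 libraries were listed at 0 (gap 1). Igf1 in Nup210+/+ replicate 3 was 25.47 TPM against 13.12 to 14.63 (gap 0.878), and Foxo1 in the same library was 19.06 TPM against 3.76 to 5.18 (gap 0.907). Igfals in Nup210+/+ replicate 2 was 3.66 TPM against 5.28 to 5.52 (gap 0.871). In Nup210-/- replicate 2, tendon markers summed to 133.55 TPM against 84.64 to 87.95 (gap 0.932) and leukocyte markers to 146.15 TPM against 130.08 to 131.9 (gap 0.887). Granulocyte precursor markers in Nup210+/+ replicate 2 summed to 381.69 TPM against 0.31 to 2.12 (gap 0.995).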

How the results depend on the processing

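No receptor, binding protein or other pathway gene passed an adjusted p of 0.05 under any of the 19 settings run, and the lowest adjusted p among the 8 genes was 0.0587, for Igfbp5 without Nup210+/+ replicate 2. Under settings that kept all libraries, Igf2r ran from 0.07 to 0.19. Leaving out single libraries, Igfbp5 ran from -0.48 to -0.31, Igfbp6 from -0.39 to -0.13, Igfbp7 from -0.26 to -0.15, Igfbp4 from -0.60 to -0.23 and Igfbp3 from -0.21 to -0.01. Igf1r turned negative with TPM as deposited (-0.0660), without mitochondrial and the 20 highest genes (-0.0223), with library weights (-0.0194), and without Nup210-/- replicate 2, Nup210+/+ replicate 2 or Nup210+/+ replicate 3 (range with single libraries left out, -0.0428 to 0.0375). Divided by fibroblast markers, a ratio chosen after seeing the data, the log2 ratio of means turned positive for Igfbp3 (0.24), Igfbp5 (0.0039), Igfbp6 (0.0865) and Igfbp7 (0.20). The sum of these markers was lower under the Nup210-/- label, which raises all such ratios.

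The count over all genes was 16 and moved to 1 without a filter on low values, 27 at a mean TPM of at least 1, 0 with upper-quartile scaling or without the trend, 10 without mitochondrial and the 20 highest genes, and 84 with library weights. The 7 higher and 9 lower genes became 2 and 12 with TPM as deposited, and 2 and 8 without mitochondrial and the 20 highest genes. It ranged from 0 to 10 with single libraries left out, where fewer samples entered. With the replicate block it was 0, and the count among the 8 genes was 0 with and without the block, but the labels do not say that the numbers pair mice. The cause of the other shifts was not tested. Pairs of genes past an adjusted p of 0.05 rose from 0 to 4 with TPM as deposited (Igfbp3 with Igfbp7, and the 3 pairs among Igfbp5, Igfbp6 and Igfbp7). The difference in the ratio of Igf1r to Insr ranged from -0.0302 to -0.0143 with single libraries left out. Depth is unknown, so low genes such as Igfbp2 cannot be judged.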
